A study of Mus musculus with 24 samples.

Results

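The genes described here are 10 regulators of red cell formation and of globin switching, Gata1, Klf1, Bcl11a, Tal1, Nfe2, Gfi1b, Zfpm1, Lmo2, Myb and Lin28b. They were chosen by name from the 48709 genes of the annotation, with earlier results of these data known. Each symbol matched 1 gene. The study asked whether inhaled nano-sized particulate matter (nPM) during gestation alters transcription in the blood and cerebral cortex of neonatal mice. RNA sequencing covered 24 libraries, 12 from whole blood and 12 from cerebral cortex, with 3 for each sex and exposure. In the nPM group, C57BL/6 dams breathed re-aerosolized particles collected beside a Los Angeles freeway from gestational day 2 until birth, for 5 hours a day on 3 days a week. The control dams breathed filtered air. Exposure ended at birth, and the pups of both groups were sampled at an age of 3 to 5 days per the labels, or on day 5 per the methods. The labels and the methods differ on the substrain (C57BL/6J or C57BL/6NJ) and on the unit of the particle dose (300 mg/m3 or 300 µg/m3). Per the methods, the 3 pups of a sex and exposure came from different litters. The labels name neither the litter of a pup nor which blood and cortex came from 1 animal, so that p-values measure the spread between these libraries.

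Red cell precursors are built by a small set of transcription factors. GATA1 binds DNA together with TAL1, LMO2 and LDB1, its cofactor FOG1 is the product of Zfpm1, and KLF1 and NF-E2 activate the globin genes and other red cell genes with them. GFI1B is a repressor needed by red cell and platelet precursors. BCL11A silences embryonic and fetal globin genes in adult-type red cells, MYB keeps progenitors dividing, and LIN28B is an RNA-binding protein of fetal-type blood formation that blocks let-7 microRNAs. Mature mouse red cells have lost their nucleus, so that the RNA of these factors in circulating blood can come from reticulocytes, nucleated precursors, platelets or white cells. Several of the genes also act elsewhere, Bcl11a in cortical neurons and Tal1 and Lmo2 in endothelium.

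Many genes of the red cell programme, and some of their own regulators, hold GATA words near the transcription start. RefSeq windows of the 250 bases upstream of a start (GRCm38.p6) were found for 8 of the 10 genes, as 9 windows. The names without a window were Nfe2 and Lmo2. The words searched, on both strands, were the letters GATA with A or T before them and A or G after them. They stood in 4 of the 9 windows, and in 26.5% of 32851 mouse windows of that length. The GC-rich word CCNCNCCC, the core bound by KLF1 and related factors, stood in 6 of 9 windows and in 45.9% of all. The windows of Gfi1b, the gene with the smallest p for nPM in blood, of Tal1 and of Lin28b are shown on the strand of the gene, with GATA words in capitals. A match is only a match of letters.
Gfi1b, chr2:28621983-28622232, minus strand: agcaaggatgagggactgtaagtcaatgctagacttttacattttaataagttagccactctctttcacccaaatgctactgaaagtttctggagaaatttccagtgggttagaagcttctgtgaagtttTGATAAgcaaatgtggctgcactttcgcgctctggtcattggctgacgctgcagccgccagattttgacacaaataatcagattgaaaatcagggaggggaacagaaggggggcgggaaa
Tal1, chr4:115056176-115056425, plus strand: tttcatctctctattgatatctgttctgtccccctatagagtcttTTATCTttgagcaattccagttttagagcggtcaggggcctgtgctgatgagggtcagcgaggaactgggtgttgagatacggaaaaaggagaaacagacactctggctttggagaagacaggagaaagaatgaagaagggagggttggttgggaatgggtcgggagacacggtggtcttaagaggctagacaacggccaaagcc
Lin28b, chr10:45470202-45470451, minus strand: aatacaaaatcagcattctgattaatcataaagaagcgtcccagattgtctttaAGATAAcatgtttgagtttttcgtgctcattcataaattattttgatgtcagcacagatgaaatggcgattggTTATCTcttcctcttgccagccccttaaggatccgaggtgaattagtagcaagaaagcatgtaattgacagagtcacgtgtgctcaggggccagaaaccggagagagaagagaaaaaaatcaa
The Gfi1b word begins 120 bases upstream of the start and the Tal1 word 205 bases upstream. Lin28b has a word on each strand, at 196 and 123 bases upstream.

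Library totals ran from 13595647 to 21895536 counts in blood and from 22301409 to 33804371 in cortex, so that 3 counts, the floor used for a count of 0, equal 0.137 to 0.221 CPM (counts scaled to a common library total) in blood and 0.0887 to 0.135 in cortex. Globin genes took 66.2 to 76.8% of the counts in 11 blood libraries and 0.0244 to 0.0678% in cortex. The blood library V2, a control female, stood apart at 50.1% and is left out of the comparisons. The sequencing lane was shared between tissues: 4 libraries of each tissue, 1 for each sex and exposure, ran in lane 3. Globin counts in cortex were higher in lane 3 (614 to 678 CPM) than in lane 2 (244 to 445 CPM), and summed cortical neuron markers in blood were 7.32 to 10.1 CPM in lane 3 and 0.294 to 1.24 CPM in lane 1, apart from V2 at 80.5 CPM and V5, an nPM male, at 36.4 CPM. In bulk tissue, fewer cells of a type and less RNA per cell cannot be told apart.

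On CPM per kilobase of gene length, which allows genes to be compared, Lmo2 had by far the highest level in control blood, with a median of 61.8 (49.6 to 78.2 over 5 libraries). Nfe2 followed at 5.42, Zfpm1 at 3.33 and Gata1 at 2.74. Tal1 stood at 1.37, Klf1 at 1.25, Gfi1b at 0.849, Myb at 0.532, Lin28b at 0.1598 and Bcl11a at 0.120. Only the steps from Lmo2 to Nfe2 and from Gata1 to Tal1 separated the ranges of neighbouring genes in this order. In control cortex the order was another one, led by Bcl11a at 7.79 (6.37 to 8.30 over 6 libraries) and Lmo2 at 4.95, whose ranges overlapped. Zfpm1 was at 1.66, Lin28b at 0.925, Tal1 at 0.553, Myb at 0.3203, Klf1 at 0.0813 and Nfe2 at 0.0207, and no control cortex library held a count of Gata1 or Gfi1b. Ranges of neighbours separated there from Lmo2 to Zfpm1 and from Tal1 to Myb.

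**Figure D1:**
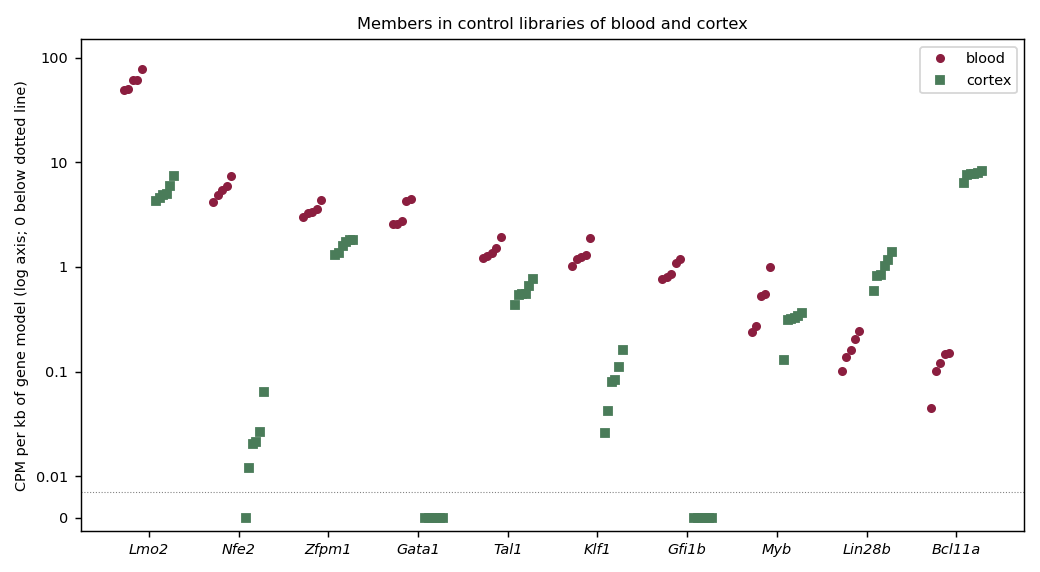
Level of each regulator in control libraries of blood (without V2) and cortex, in CPM per kilobase of gene length on a log axis, 1 point per library. Lmo2 leads in blood with a median of 61.8, Bcl11a leads in cortex with 7.79, and Gata1 and Gfi1b have no count in control cortex.

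The tissues were set against each other in control libraries, 5 of blood and 6 of cortex. Of all 24361 genes tested, 22.2% were higher and 41.4% lower in blood at an adjusted p under 0.05 (edgeR, TMM scaling). Of the 10 regulators, 9 were higher and 1, Bcl11a, was lower in blood. Pooled over libraries, Gata1 was at least 473-fold and Gfi1b at least 104-fold higher in blood in CPM, with the cortex taken at 3 counts over the group. Nfe2 (228-fold), Klf1 (15.98-fold) and Lmo2 (11.3-fold) followed. Tal1 (2.52-fold), Zfpm1 (2.18-fold) and Myb (1.84-fold) were closest to even in pooled CPM. Bcl11a was 66.0-fold and Lin28b 5.78-fold higher in cortex on this scale. Under the TMM scaling of the calls, the log2 difference, blood minus cortex, was 5.56 for Tal1, 5.37 for Zfpm1 and 5.04 for Myb.

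The direction of Lin28b depended on the scaling. Its log2 difference, blood minus cortex, was 1.74 (SE 0.25, adjusted p = 2.35e-06, edgeR) under TMM, -2.47 with library totals and -0.54 with totals that leave out globin, while the median of all genes stood at -1.47, -4.94 and -3.51. Relative to that median Lin28b was higher in blood under all 3, by 3.21, 2.47 and 2.98. Bcl11a was lower in blood under all 3, at -1.83, -6.05 and -4.12, and it lay 0.36, 1.11 and 0.61 below the median gene. The calls of Klf1, Tal1, Nfe2, Zfpm1, Lmo2 and Myb kept their direction with library totals, where the log2 difference was 7.73 for Nfe2, 3.93 for Klf1, 3.49 for Lmo2, 1.32 for Tal1, 1.11 for Zfpm1 and 0.82 for Myb. Of 24361 genes, TMM called 5404 higher and 10082 lower in blood, and library totals called 1252 and 21825.

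The question of exposure in blood was put to 5 control and 6 nPM libraries, with sex and RNA integrity (RIN) in the fit. Levels from here on are TMM-scaled CPM. None of the 10 regulators passed the unadjusted p of 0.005 that the study used, against 0.17% of the 9977 genes tested (17 genes). The count was 0 of 10 with limma voom and DESeq2 as well. At an unadjusted p under 0.05 edgeR gave 1 of 10, Gfi1b, against 3.11% of all genes (310). In value 3 regulators were higher and 7 lower with nPM, with a median log2 difference of -0.14, beside 0.00 for all genes.

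Gfi1b, the repressor shared by red cell and platelet precursors (chr2:28609450-28621982, minus strand, mm10), had the largest difference of the 10. Its control libraries held 1.22, 2.50, 2.62, 1.49 and 1.34 TMM-scaled CPM in V4, V17, V6, V8 and V22, and its nPM libraries ran from 0.788 through a median of 0.969 to 1.33. Only the control female V4 and the nPM female V18 made the groups overlap on this scale. In plain CPM the groups did not overlap, with 1.40 to 2.18 in control and 0.788 to 1.19 in nPM blood. Among all genes 0.241% had such a gap in either direction. The control library V2, left out here, held 0.803 CPM of Gfi1b, within the nPM range. The mean was 1.84 ± 0.671 (SD, n = 5) in control and 1.02 ± 0.221 (SD, n = 6) in nPM blood. The log2 difference was -0.84 (SE 0.30, 95% confidence interval -1.46 to -0.22, unadjusted p = 0.0103, adjusted p = 1.00, edgeR), and a two-sided exact permutation test of the libraries gave unadjusted p = 0.00866. The values rest on 19 to 44 counts per control library and 16 to 25 per nPM library. The difference was -0.79 within lane 1 and -0.81 within lane 3. Without V17 it was -0.54 (unadjusted p = 0.132, edgeR) and without V4 it was -0.998 (unadjusted p = 0.00413).

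The genes of the core complex differed less. Gata1, on chromosome X (chrX:7959260-7978071, minus strand), held 4.87, 7.23, 8.78, 11.2 and 9.80 in the control libraries V4, V17, V6, V8 and V22, and from 7.10 to 13.3 with a median of 9.18 in nPM blood. All but the lowest control value, V4, lay inside the nPM range. The means were 8.38 ± 2.45 (SD, n = 5) and 9.90 ± 2.57 (SD, n = 6), and the log2 difference was 0.30 (SE 0.23, 95% confidence interval -0.18 to 0.78, unadjusted p = 0.204, edgeR). It was 0.48 within lane 1 and -0.17 within lane 3, 0.13 without V4 and 0.44 without V21 (unadjusted p = 0.0643).

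Tal1, the basic helix-loop-helix partner of GATA1 (chr4:115056426-115071755, plus strand), was at 5.27, 6.89, 7.29, 5.73 and 7.65 in the same 5 control libraries and at 4.49 to 8.38, with a median of 6.27, in nPM blood. Its log2 difference was -0.05 (SE 0.20, 95% confidence interval -0.47 to 0.37). Lmo2, the bridge between these factors (chr2:103957986-103981878, plus strand, with an antisense gene overlapping it), was at 84.3, 154, 142, 143 and 153 in control and at 107 to 142, with a median of 115, in nPM blood. V4 was again the lowest control and the lowest library of all, and the other 4 control values lay above every nPM value on this scale. In plain CPM they did not: control blood held 107 to 169 CPM and nPM blood 105 to 136 CPM, and V6 was at 108 CPM. The log2 difference of Lmo2 was -0.19 (SE 0.21, 95% confidence interval -0.62 to 0.25), -0.37 without V4 (unadjusted p = 0.0371, edgeR) and -0.12 without V17. Zfpm1, encoding the GATA1 cofactor FOG1 (chr8:122282141-122337251, plus strand, inside a predicted gene on the same strand), was at 8.17, 13.3, 15.3, 13.4 and 13.8 in control and at 7.83 to 15.8, with a median of 11.9, in nPM blood. Its log2 difference was -0.10 (SE 0.20, 95% confidence interval -0.52 to 0.32). The groups overlapped for each of these genes. Within lane 1 and lane 3 the differences were -0.0166 and 0.0277 for Tal1, -0.0216 and -0.32 for Lmo2, and -0.13 and 0.0385 for Zfpm1.

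Of the activators of globin genes, Klf1 (chr8:84901928-84905291, plus strand) was at 1.43, 2.28, 2.05, 2.04 and 2.64 in control and at 0.983 to 2.27, with a median of 1.66, in nPM blood. The log2 difference was -0.33 (SE 0.26, 95% confidence interval -0.88 to 0.22, unadjusted p = 0.223, edgeR), -0.52 without V4 and -0.18 without V5. Nfe2, the blood-restricted subunit of NF-E2 (chr15:103248212-103258403, minus strand), was at 11.5, 18.6, 16.4, 18.9 and 19.9 in control and at 12.3 to 27.7, with a median of 16.4, in nPM blood. Its log2 difference was 0.00 (SE 0.22, 95% confidence interval -0.46 to 0.46). The control values of Nfe2, other than V4, lay within a narrow band in the middle of the nPM values. Within lane 1 and lane 3 Klf1 differed by -0.22 and -0.39, and Nfe2 by 0.19 and -0.16.

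Bcl11a, whose product silences embryonic and fetal globin genes, and Lin28b, a gene of fetal-type blood formation, were scarce. Bcl11a (chr11:24078056-24174123, plus strand, with antisense genes overlapping it) was at 1.505, 1.82, 0.778, 1.41 and 1.79 in control and at 0.4925 to 2.06, with a median of 1.62, in nPM blood, from 10 to 44 counts a library. Its log2 difference was 0.01 (SE 0.33, 95% confidence interval -0.67 to 0.69). The nPM male V5, which had the neuron markers, also had the highest Bcl11a. At the cortex ratio of Bcl11a to these markers it would carry 0.468 of its 2.38 plain CPM. Whether that ratio holds in V5, and the source of its Bcl11a, were not tested. Lin28b (chr10:45376620-45470201, minus strand) was at 0.860, 0.854, 1.13, 1.41 and 0.492 in control and at 0.374 to 1.31, with a median of 0.697, in nPM blood. Its log2 difference was -0.27 (SE 0.36, 95% confidence interval -1.02 to 0.48), from 7 to 26 counts a library, and without 1 library it ranged from -0.42 (without V3) to -0.0364 (without V8). The differences within lane 1 and lane 3 were -0.30 and -0.57 for Lin28b and 0.0781 and -0.16 for Bcl11a.

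Myb (chr10:21124936-21160905, minus strand, with an antisense gene overlapping it) was at 3.22, 2.50, 1.27, 1.18 and 2.06 in control and at 1.124 to 2.12, with a median of 1.45, in nPM blood. The 2 control females were the highest libraries, and the 2 lowest control libraries lay among the nPM values. The log2 difference was -0.49 (SE 0.26, 95% confidence interval -1.04 to 0.05, unadjusted p = 0.0732, edgeR), with -0.18 within lane 1 and -0.76 within lane 3. The exact permutation p for Myb was 0.221. Permutation p for the other 8 regulators besides Gfi1b ranged from 0.216 to 0.918.

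**Figure D2:**
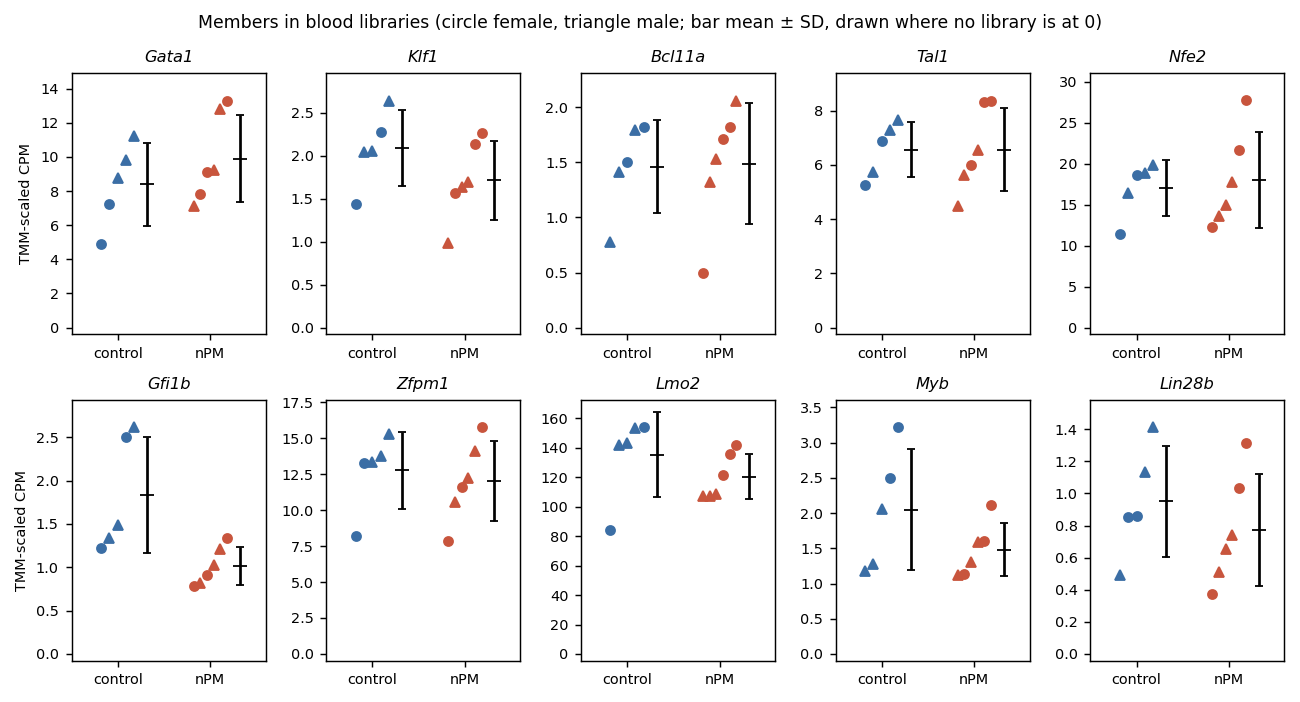
TMM-scaled CPM of the 10 regulators in blood, 1 panel per gene, each point 1 library by exposure and sex, without V2, with the group mean and SD. Gfi1b is lower in nPM blood (1.02 ± 0.221 against 1.84 ± 0.671), and the groups overlap for every regulator on this scale.

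The wider pathway moved as little with nPM in blood, and no gene of the lists named here passed p of 0.005 (edgeR). Of 15 partners of the GATA1, TAL1 and LMO2 complex, 6 were higher and 9 lower in value (median log2 difference -0.04), and the smallest p belonged to Ssbp2 (0.39, unadjusted p = 0.114), which stabilises LDB1, and Lyl1 (-0.31, unadjusted p = 0.122), a relative of TAL1. Of 24 cofactors and regulators of globin repression 20 were tested, 11 higher and 9 lower (median 0.02), led by the deacetylase Hdac2 (0.68, unadjusted p = 0.0943). Of 5 tested partners and relatives of NF-E2, 4 were higher in value (median 0.23), led by Nfe2l1 (0.39, unadjusted p = 0.103). The 6 genes of erythropoietin and stem cell factor signalling were split 4 to 2 (median 0.08), with the erythropoietin receptor Epor at -0.36 (unadjusted p = 0.345). Of 6 tested globin genes 1 was higher and 5 lower (median -0.14), and of 25 red cell genes 18 were higher and 7 lower (median 0.08). The embryonic share of all beta-globin counts was 9.18e-05 to 0.000514% in control and 0.000131 to 0.000517% in nPM blood (exact permutation p = 0.801).

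The same libraries differed in markers of other blood cells, none past p of 0.005. All 10 tested B cell markers were lower in value with nPM (median log2 difference -0.32), as were 9 of 10 T and NK cell markers (-0.40), and 11 of 12 platelet markers were higher (0.23). Their summed levels overlapped: B cell markers reached 23.3 to 61.5 CPM in control and 11.1 to 44.7 CPM in nPM blood, and platelet markers 240 to 419 and 287 to 689 CPM. The median B cell sum was not lower with nPM, at 28.3 CPM in control and 30.3 CPM in nPM blood. The medians were 16.5 and 14.1 CPM for T and NK cell markers and 262 and 390 CPM for platelet markers. The part of these cells in the values of Gfi1b and the other regulators was not tested.

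Whether the exposure difference depended on sex was asked with an exposure-by-sex term, in which the female effect rests on 2 control libraries, V4 and V17. None of the 10 regulators passed p of 0.005, against 0.902% of all genes (90), nor did any with DESeq2. At an unadjusted p under 0.05 edgeR gave 2 of 10, Nfe2 and Tal1, against 10.7% of all genes (1064). In 7 of 10 regulators the male difference was below the female one, with a median of -0.68 on the log2 scale, beside 0.09 for all genes.

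Of those 7 regulators, 6 were red cell factors and the other was Lin28b. For Nfe2 the log2 difference with nPM was 0.55 in females (unadjusted p = 0.0537) and -0.46 in males (unadjusted p = 0.0767, edgeR), and the male effect minus the female effect was -1.02 (SE 0.37, 95% confidence interval -1.80 to -0.24, unadjusted p = 0.0135, adjusted p = 0.452). Without the nPM male V7 it was -1.24 (unadjusted p = 0.00438), without V4 it was -0.83 (unadjusted p = 0.0843), and without RIN in the fit its p was 0.114. Tal1 differed by -0.80 (SE 0.37, unadjusted p = 0.0439), Gata1 by -0.88 (SE 0.43, unadjusted p = 0.0536), Klf1 by -0.997 (SE 0.50, unadjusted p = 0.0614), Lmo2 by -0.77 (SE 0.40, unadjusted p = 0.0659) and Zfpm1 by -0.59 (SE 0.39, unadjusted p = 0.148). Without V4 the value of Gata1 was -0.57 (unadjusted p = 0.283), that of Lmo2 -0.32 (unadjusted p = 0.452) and that of Zfpm1 -0.32 (unadjusted p = 0.504, edgeR). Without V17 that of Lmo2 was -1.19 (unadjusted p = 0.00810), and without the nPM female V3 that of Gata1 was -0.52 (unadjusted p = 0.255).

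Behind these terms stood values such as those of Lmo2 in males, 107 to 109 with nPM and 142 to 153 in control in TMM-scaled CPM. In plain CPM the same males overlapped, at 105 to 126 and 108 to 169. For Gata1 the effect was 0.79 in females (unadjusted p = 0.0206, edgeR) and -0.09 in males, and for Klf1 it was 0.20 in females and -0.80 in males (unadjusted p = 0.0282). The progenitor factor Myb ran the other way, at -0.93 in females (unadjusted p = 0.0178) and -0.07 in males, a difference of 0.86 (SE 0.52, unadjusted p = 0.115). In blood without V2, Klf1 rests on 21 to 59 counts a library and Myb on 15 to 90. Bcl11a differed by 0.67 (SE 0.68) and Lin28b by -0.36 (SE 0.77). Gfi1b was lower in value by the same amount in both sexes, -0.85 in females and -0.83 in males, a difference of 0.02 with a wide interval of -1.35 to 1.38.

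**Figure D3:**
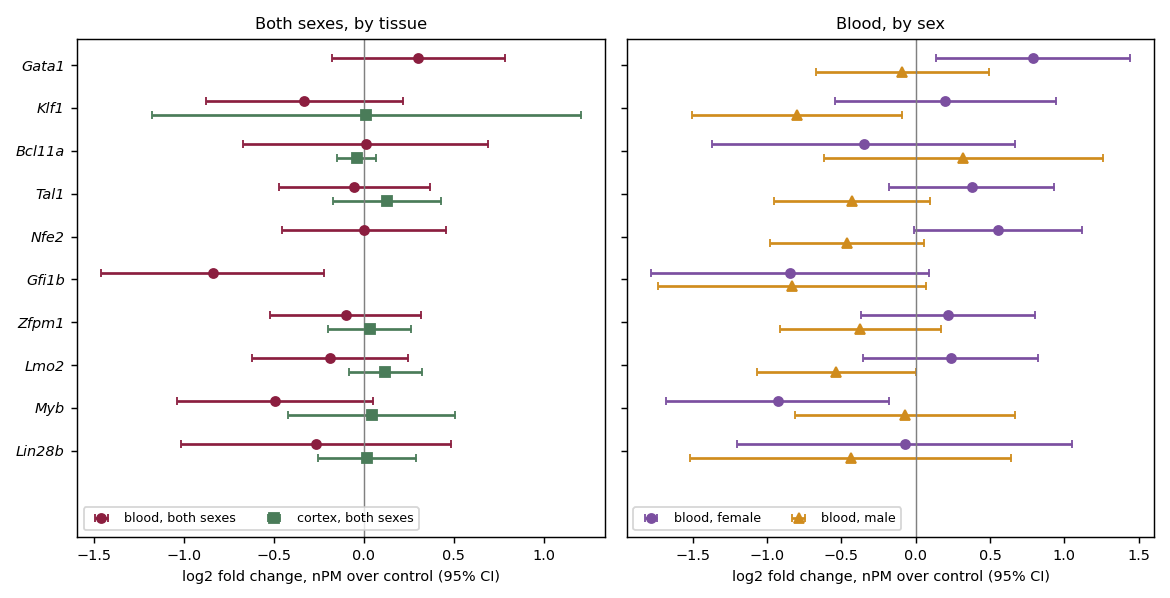
Log2 difference of nPM against control with 95% confidence intervals (edgeR) for each regulator, on the left in blood and cortex over both sexes, on the right in blood by sex. The interval of Gfi1b in blood, -1.46 to -0.22, is the only one over both sexes that leaves out 0, and for Nfe2 the values are 0.55 in females and -0.46 in males.

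Marker genes of blood cells differed by sex in the same fit. All 25 tested red cell genes (median -0.88), all 12 platelet markers (median -1.12) and all 6 monocyte markers (median -0.91) had a male effect below the female one. Of these, the platelet genes Gp5 (-1.42, unadjusted p = 0.00145) and Ppbp (-1.80, unadjusted p = 0.00281, edgeR) passed p of 0.005. All 10 B cell (0.87), 9 of 10 T and NK cell (0.88) and all 12 neutrophil markers (0.75) had a male effect above the female one, with the B cell gene Rag1 (2.37, unadjusted p = 0.00348, edgeR) past p of 0.005. Of the remaining lists, the mast cell gene Ms4a2 (3.17, unadjusted p = 0.00414, edgeR) and the complement gene C1qb of the microglia list (3.03, unadjusted p = 0.00411, edgeR) passed it too. V4, 1 of the 2 control females, had the highest summed B cell markers of the 11 libraries, 61.5 CPM, and T and NK cell markers of 36.8 CPM beside 7.63 to 18.7 CPM elsewhere. In TMM-scaled CPM, where its scaling factor of 1.28 was the largest, it was the lowest control for 7 regulators, Gata1, Klf1, Tal1, Nfe2, Gfi1b, Zfpm1 and Lmo2. In plain CPM it was the lowest control only for Gata1, Zfpm1 and Lmo2. It was not the lowest for Klf1 (1.83 CPM beside 1.56 CPM in V6) or Nfe2 (14.6 CPM beside 12.5 CPM in V6). Nor was it for Tal1 (6.71 CPM beside 5.37 CPM in V8) or Gfi1b (1.55 CPM beside 1.40 CPM in V8). The part of these cells in the sex difference of the regulators was not tested.

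The 11 blood libraries differ in depth, globin share and lane. Across them, on log2 TMM-scaled CPM, Klf1 ran with Tal1 (r = 0.85) and Lmo2 (r = 0.76), and Lmo2 with Nfe2 (r = 0.69). Against the summed level of each list, Nfe2 had the most correlations of at least 0.75 in size, with the Maf and NF-E2 relatives (r = 0.87), B cell markers (-0.83), T and NK cell markers (-0.80), red cell genes (0.78), partners of the complex (0.77) and neural progenitor markers (0.77). Gata1 reached it with platelet markers (0.79) and the partners (0.78), Tal1 with neural progenitor markers (0.82), Myb with mast cell, basophil and eosinophil markers (0.79) and Lin28b with neuron markers (-0.75). The neural progenitor list also holds Vim, Mki67 and Top2a, and 3 of its 8 genes had a count in every blood library. For the neuron list it was 2 of 10. The neuron sums also differed by lane, apart from V5. In plain CPM Lin28b held 0.327 to 0.742 in lane 3 and 0.725 to 1.34 in lane 1. The part of lane in this correlation was not tested. The mast cell, basophil and eosinophil list summed to 0.863 to 3.15 CPM, with 3 of its 7 genes counted in every blood library. The cells behind these sums were not tested. The genes most like a regulator, among 5548 genes with at least 10 counts in every library, included Cpox, an enzyme of heme synthesis, for Gata1 (r = 0.96), and Kel, a red cell surface protein, for Nfe2 (r = 0.96). The closest gene was Dusp6 for Bcl11a (r = 0.96), Memo1 for Lmo2 (0.93), Sppl2b for Zfpm1 (0.92), Apobec3 for Klf1 (0.90), Mrpl30 for Tal1 (0.89), Ttc38 for Gfi1b (0.89) and Rsl1d1 for Myb (0.89).

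In cortex, exposure was compared between 6 control and 6 nPM libraries. Of the 10 regulators 7 had a count in every library and were tested, and none passed p of 0.005, against 0.614% of 20857 genes. None passed 0.05 either, against 5.67% of all genes (1183), and the count at 0.005 was 0 with limma voom and DESeq2. In value 6 were higher and 1 lower with nPM, and their median log2 difference was 0.03 beside 0.00 for all genes.

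Bcl11a, a factor of cortical projection neurons, was the most abundant of them. It ran from 85.7 through a median of 103 to 106 in control and from 89.5 through 97.1 to 104 in nPM cortex, with complete overlap. The means were 100.6 ± 7.46 and 97.8 ± 5.67 (SD, n = 6 each), and the log2 difference was -0.04 (SE 0.05, 95% confidence interval -0.15 to 0.07), the narrowest interval of the 7 genes. Lmo2 ran from 9.23 through 10.7 to 15.6 in control and from 11.5 through 12.7 to 13.9 in nPM cortex, a log2 difference of 0.12 (SE 0.10, 95% confidence interval -0.08 to 0.32). The nPM values of Lmo2 lay inside the control range.

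Lin28b ran from 3.23 through 5.03 to 7.29 in control and from 3.70 through 5.44 to 6.41 in nPM cortex, and its log2 difference was 0.02 (SE 0.13, 95% confidence interval -0.26 to 0.29), with -0.20 within lane 2 and 0.49 within lane 3. Zfpm1 (control 4.59 to 6.50, nPM 5.26 to 6.40) differed by 0.03 (SE 0.11), Tal1 (1.93 to 3.38, 2.25 to 3.05) by 0.13 (SE 0.14) and Myb (0.547 to 1.49, 0.759 to 1.75) by 0.05 (SE 0.22). All 3 overlapped between the groups. Exact permutation p for the 7 genes ranged from 0.273 to 0.955.

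The red cell factors proper were close to absent from cortex. Klf1 held 1 to 8 counts a library, for which a log2 difference of 0.01 has an interval of -1.18 to 1.21. Nfe2 held 0 to 8 counts. Gfi1b had 0 counts in all 12 libraries, and Gata1 had 0 in 9, with 1 count in V11, 1 in V13 and 3 in V23, all nPM. These 3 genes were not tested, and at this depth a difference between the groups was not detectable. The exposure-by-sex term in cortex gave 0 of 7 at p of 0.005, against 1.35% of all genes, with 0 by DESeq2 and no p under 0.366 with edgeR.

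**Figure D4:**
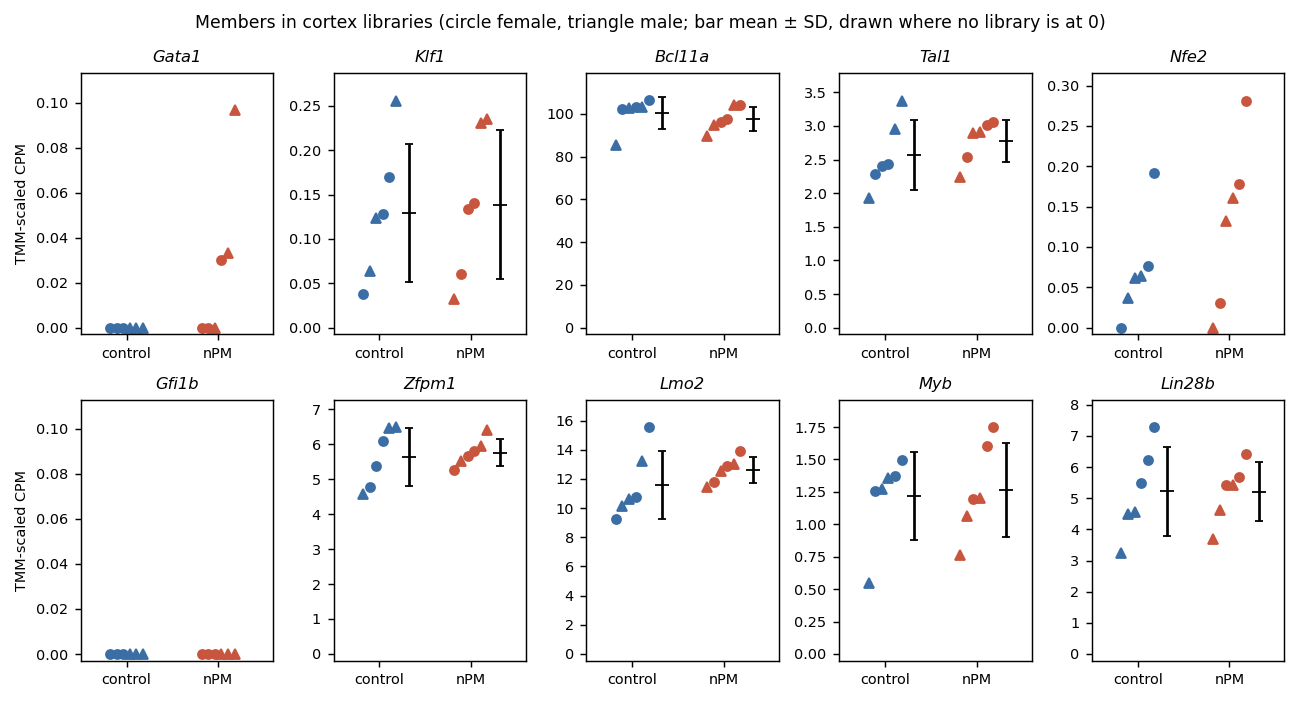
TMM-scaled CPM of the 10 regulators in cortex, 1 panel per gene, each point 1 library by exposure and sex, with the group mean and SD where no library is at 0. Bcl11a stands at 100.6 ± 7.46 in control and 97.8 ± 5.67 in nPM cortex, and Gfi1b has no count in any library.

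The pathway lists in cortex gave little. Of 15 partners of the complex 7 were higher and 8 lower in value with nPM, and of 22 tested genes of globin repression 11 and 11. Of the relatives of NF-E2 the smallest p was that of the small Maf factor Mafk (0.17, unadjusted p = 0.0545), and of the signalling genes that of Stat5b (0.15, unadjusted p = 0.0398, edgeR), which acts below the erythropoietin receptor. None of these passed p of 0.005. Among the cell type lists, all 8 interneuron markers (median log2 difference 0.16) and all 8 neural progenitor markers (0.13) were higher in value with nPM, as were 10 of 11 endothelial markers (0.0522). The interneuron gene Gad1 (0.26, unadjusted p = 0.000432, adjusted p = 0.4926, edgeR) passed p of 0.005. The part of these cells in the values of the regulators was not tested. Across the 12 cortex libraries Bcl11a ran with Lin28b (r = 0.77). Against the list sums, correlations of at least 0.75 in size were those of Lmo2 with mast cell, basophil and eosinophil markers (r = 0.84) and interneuron markers (0.77), and of Myb with B cell markers (0.78). The mast cell, basophil and eosinophil list summed to only 0.645 to 1.30 CPM in cortex, with 1 of its 7 genes counted in every library. The B cell list summed to 3.79 to 10.5 CPM, with 5 of its 11 genes counted in every library. The gene most like Bcl11a among 16660 genes was Cgn (r = 0.96), and Zfpm1 ran closest to Parvg (0.91) and Rac2 (0.89), genes of blood and immune cells.

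The library V2, labelled control female blood, held 926 counts of Bcl11a. That is 43.7 CPM, or 27.6 times the median of the other 11 blood libraries, which ran from 0.492 to 2.38 CPM. Its Myb was also above all others, at 5.34 CPM beside 0.971 to 4.11. The red cell factors Gata1 (4.11 CPM beside 6.21 to 13.3), Klf1 (0.567 beside 1.14 to 2.92), Tal1 (3.31 beside 5.20 to 8.45), Nfe2 (8.83 beside 12.5 to 27.7) and Lmo2 (70.0 beside 105 to 169) were below all of them. Gfi1b, Zfpm1 and Lin28b lay within the range of the others. With V2 in the exposure comparison, the difference of Gfi1b was -0.56 (unadjusted p = 0.323, edgeR) and that of Bcl11a -0.46.

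**Figure D5:**
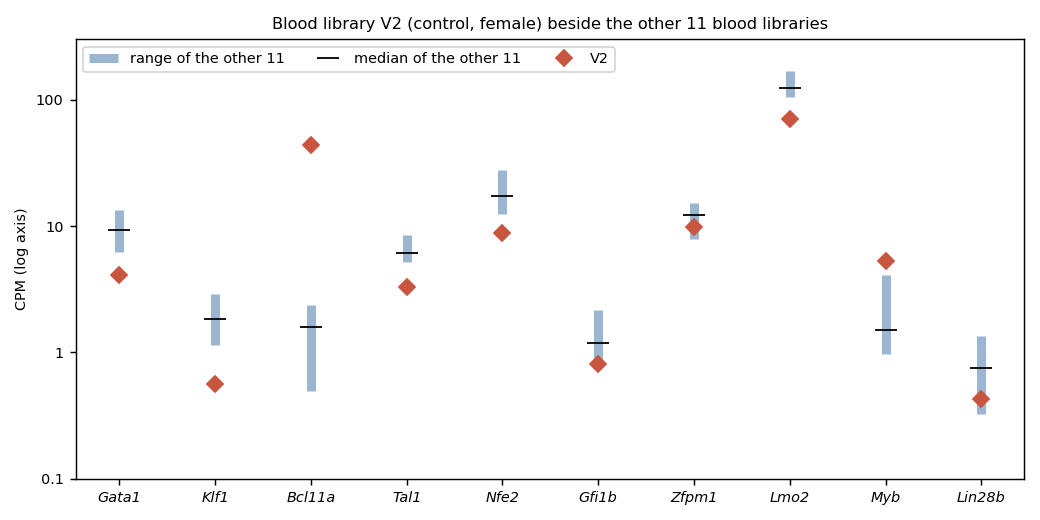
CPM of the 10 regulators in the 12 blood libraries on a log axis, with V2 marked apart from the other 11. V2 is above all others for Bcl11a (43.7 CPM) and Myb (5.34 CPM) and below all others for Gata1, Klf1, Tal1, Nfe2 and Lmo2.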

How the data were processed

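Blood and cortex RNA was depleted of ribosomal RNA and sequenced on a HiSeq 3000. The authors trimmed the reads with Trimmomatic, used HISAT2 for alignment (mm10) and featureCounts 1.5.0-p3 for counting (Gencode M11), and the deposited counts are not normalized. Strandedness is not given in the sources used here, so reads of overlapping antisense genes cannot be told apart. A deposited mean RPKM column was not used. The authors excluded 1 blood library that they do not name, and V2 was taken as that library from earlier work on these data.

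Counts were tested with edgeR 4.0.16 (quasi-likelihood F test, two-sided, TMM, Benjamini-Hochberg over all genes tested) in R 4.3.3, after dropping genes that any library of the fit held at 0. Model 1 held exposure, sex and RIN, and model 2 added exposure by sex. Tissues were compared in control libraries with sex as covariate, on genes with at least 10 counts summed over them. Cutoffs were an unadjusted p of 0.005 and, between tissues, an adjusted p of 0.05. Exact permutation tests used log2 TMM-scaled CPM. The script was tested on simulated data. Alternatives were limma voom (3.58.1), DESeq2 (1.42.0), RLE scaling, library totals, totals without globin, other filters, no RIN, lane as covariate, V2 kept, and each library left out.

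All 10 regulators are given whatever their values. Of each gene list, genes past p of 0.005 are named in the exposure and exposure-by-sex comparisons, and for the pathway lists otherwise those with the smallest p, and for likeness the genes with the largest r. The regulators and lists were chosen with earlier results of these data known. The comparison of sexes in cortex, and the leaving out of V4 or V17 from model 2, were chosen after seeing the data.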

Additional observations from a re-analysis of the deposited data

Results flagged for a closer look

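The highest and lowest libraries of 42 groups of 4 to 10 samples were tested with Dixon's gap ratio, of which chance marks about 1 in 20. Bcl11a in the blood control library V2 stood at 43.7 CPM, with 0.968 of the range of the 6 control libraries lying between it and its neighbour. V2 enters none of the comparisons, so that this is also signal in unused data above the other control libraries, which reached 1.98 CPM at most. The same library held 80.5 CPM of summed cortical neuron markers. Its neural progenitor list summed to 722 CPM, beside 126 to 249 CPM in the other 11 blood libraries and 427 to 627 CPM in cortex. At the cortex ratio of Bcl11a to the neuron markers V2 would carry 1.03 of its 43.7 CPM of Bcl11a. Whether that ratio holds in V2, and the source of its Bcl11a, were not tested. In control cortex, Bcl11a was lowest in V24 at 83.9 CPM (gap 0.660 of the range, n = 6), and Myb was lowest in V14 at 0.532 CPM (gap 0.772 of the range, n = 6). No difference between groups of the regulators was marked.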

How the results depend on the processing

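For the 10 regulators, 300 values under alternatives kept their direction and side of the threshold, 1 fell short of it and 21 reversed. Among the exposure differences in blood that reversed were Bcl11a -0.0657 with limma voom and -0.00541 with totals without globin, from 0.01, and Nfe2 -0.00929 with limma voom, -0.00834 with at least 10 counts in every library, -0.0223 with lane and -0.0339 with totals without globin, from 0.00. With V2 kept, Klf1 was at 0.0185, Bcl11a -0.46, Tal1 0.26, Zfpm1 0.18, Lmo2 0.12 and Lin28b 0.0559. The exposure-by-sex term, called the sex term in this section, was for Gfi1b in blood -0.0309 with DESeq2, -0.0356 with RLE and -0.87 with V2. In cortex, Klf1 was at -0.0168 with DESeq2, -0.0026 with genes counted in any library and -0.0027 with lane, and the sex term of Lmo2 was 0.00071 without RIN. Between tissues Lin28b was at -2.47 with library totals and -0.54 with totals without globin, and with all 12 control libraries its 1.34 had an adjusted p of 0.0575 (edgeR). The causes were not tested.

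The count of all genes past the threshold moved from 17 to 106 (any library), 7 (10 counts), 9 (lane), 5 (V2 kept) and 6 (without globin) for exposure in blood. With genes counted in any library it moved from 90 to 323 for the sex term in blood, from 128 to 526 for exposure in cortex and from 281 to 787 for the sex term in cortex. Between tissues it was 8861 with a count in every library, where fewer genes are tested. Leaving out 1 library gave 11 to 37 genes for exposure in blood (fewest without V1, most without V21), 26 to 272 for the sex term in blood (without V4, without V18), 68 to 315 for exposure in cortex (without V11, without V23) and 159 to 403 for the sex term in cortex (without V23, without V15). The count of regulators was 0 or 1, with Gfi1b past it without V4 and Nfe2 in the sex term without V7. Ranges that crossed 0 when 1 library was left out were, for exposure in blood, Bcl11a -0.35 to 0.21, Tal1 -0.18 to 0.0460, Nfe2 -0.17 to 0.12 and Zfpm1 -0.23 to 0.0069. For the sex term in blood they were Bcl11a -0.0169 to 1.18, Gfi1b -0.56 to 0.71 and Lin28b -0.94 to 0.27. For exposure in cortex they were Klf1 -0.52 to 0.29, Bcl11a -0.0784 to 0.00015, Zfpm1 -0.0393 to 0.0749, Myb -0.0770 to 0.16 and Lin28b -0.0721 to 0.10. For the sex term in cortex they were Klf1 -0.85 to 0.70, Bcl11a -0.0075 to 0.15, Zfpm1 -0.15 to 0.0899 and Myb -0.44 to 0.20. No paired analysis was possible because the library numbers are unique and the labels do not pair libraries. Low counts limit Gfi1b, Bcl11a, Lin28b, Klf1 and Myb in blood and Klf1 in cortex.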

Other observations

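Lin28b differed between the sexes in cortex, a comparison chosen after its values were seen. The 6 female libraries held 5.46 to 7.50 CPM and the 6 male libraries 3.16 to 5.46 CPM. The lowest female, V9, and the highest male, V23, both stood at 5.46 CPM. In TMM-scaled CPM the sexes overlapped there, at 5.43807 in V9 and 5.43814 in V23. Male minus female was -0.53 on the log2 scale (SE 0.14, 95% confidence interval -0.83 to -0.23, unadjusted p = 0.00186, adjusted p = 0.797, edgeR). Of all 20857 genes, 0.518% passed p of 0.005 in this comparison. The exact permutation p was 0.00433, and the difference was -0.50 within lane 2 and -0.50 within lane 3. In TMM-scaled CPM the mean was 6.34 in females and 4.09 in males in control cortex, and 5.84 in females and 4.59 in males in nPM cortex. The unadjusted p was 0.00154 with limma voom, 4.58e-04 with DESeq2 (adjusted p = 0.178), 0.00131 without RIN, 0.00278 with lane and 1.13e-04 on genes counted in any library (adjusted p = 0.0275, edgeR). With that last filter the genes past p of 0.005 rose from 108 to 460. Those with an adjusted p under 0.05 rose from 7 to 165. Without V10, a control female, the difference of Lin28b was -0.38 (unadjusted p = 0.0468, edgeR), and without V23, an nPM male, it was -0.65. Myb in cortex was also lower in value in males, by -0.54 on the log2 scale between group means, with an exact permutation p of 0.0238. Of the 7 regulators tested in cortex, the other 5 had a permutation p of 0.184 or more.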
